A study of Dunaliella tertiolecta with 6 samples.

Results

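IRT1A, IRT1B, NRAMP4 and FER1 are 4 genes of the unicellular green alga Dunaliella tertiolecta named for proteins that take up, move or store iron. They were picked by the name the authors' annotation gives them, as 4 of 14354 genes in the expression table. What their proteins carry or hold in this alga was not tested. All 4 exceeded the filter of a mean of 1 FPKM over the libraries, which left 11273 genes for testing. The RNA came from wild-type vegetative cells of strain UTEX LB 999, a culture-collection strain, grown as liquid cultures at 24 °C with 140 rpm shaking, in constant light and 2 M NaCl. One group received no added iron (0 µM) and the other 1.5 µM added iron, with 3 libraries from 3 flasks in each, and both groups shared the salt, the light and the strain. The titles give 2 d of growth and the growth protocol gives 3 days. Levels are in FPKM (fragments per kilobase, scaled to the depth of the library), so levels of different genes are compared per length.

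ZIP proteins, the family to which IRT1 belongs, carry divalent metals such as iron, zinc and manganese into the cytosol. In Arabidopsis, IRT1 is the main route of ferrous iron into the root. NRAMP proteins move divalent metals together with protons, and in Arabidopsis NRAMP4 releases iron from the vacuole. Ferritin, for which FER1 is named, is a protein shell that holds iron as a ferric mineral. In plants and green algae ferritin is found in the plastid. The comparison of the iron levels asks how transcripts for moving iron and for storing it change when none is supplied.

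Without added iron the 3 transporter genes rose and the ferritin gene fell. On the linear scale, the mean level of IRT1A was 8.47 times, that of IRT1B 9.20 times and that of NRAMP4 3.56 times the mean at 1.5 µM, whereas FER1 was 2.41 times higher with iron. In each of the 4 genes, all libraries of one iron level lay beyond all libraries of the other. Among all tested genes, 11.6% were called higher and 18.7% lower without added iron (limma adjusted p under 0.05), and 19.6% were higher and 28.0% lower with no overlap between the groups. A called change of 2-fold or more in FPKM + 1, as all 4 genes had, was seen upward in 1.90% of tested genes and downward in 3.13%. FPKM is a share of the RNA in a library, so fewer cells with a transcript and less of it per cell cannot be told apart.

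**Figure D1:**
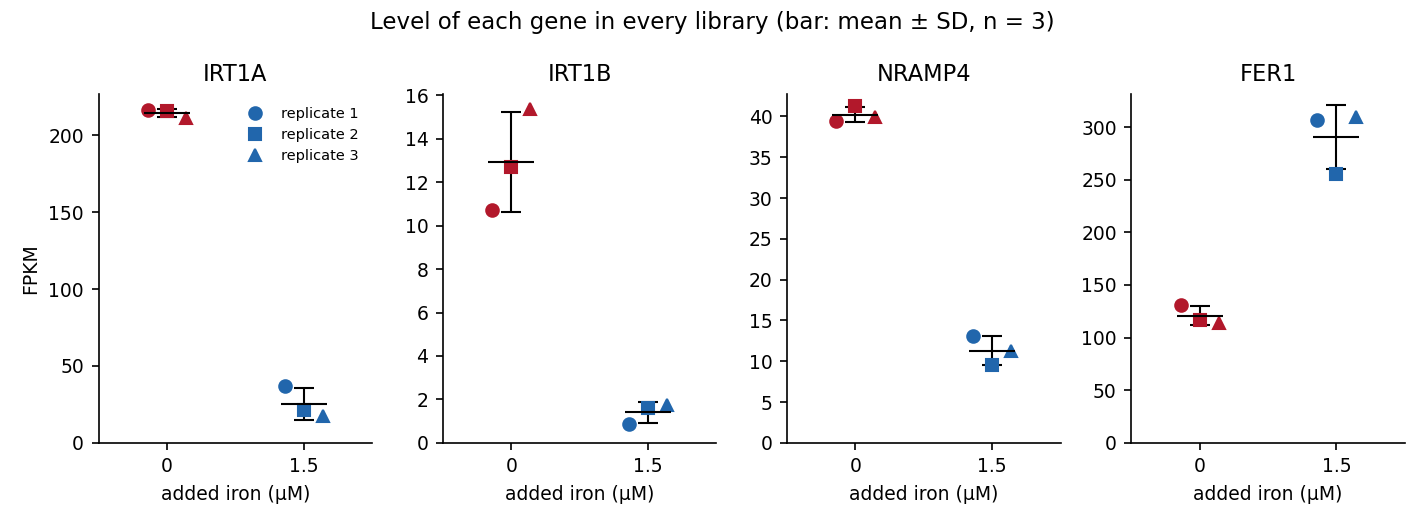
FPKM (linear axes from 0) of IRT1A, IRT1B, NRAMP4 and FER1 in every library at 0 and 1.5 µM added iron, with the replicate number shown by the symbol and the mean ± SD (n = 3) by the bars. The 3 transporter genes are higher in every library without added iron, and FER1 is higher in every library with it.

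The FPKM of a library summed to between 808592 and 898151 without added iron and to between 982304 and 1021467 with it. These sums did not overlap between the groups. The main fit used the FPKM without rescaling, and equal sums were an alternative. In the 6 libraries between 12253 and 12509 genes were above 0. Read totals were not used here. Low FPKM values were stepped. Taking a step as 1 read, the libraries hold roughly 10300000 to 20300000 reads, with the fewest in 1.5 µM replicate 3. The steps stood apart in both replicate 3 libraries, where they were far sharper with the coding length shortened by 205 nt. The fullest narrow bin of low values then held 33.3% (0 µM) and 44.4% (1.5 µM) of them, against 2.36% and 4.36% at full length. An even spread would give 0.369%. In 0 µM replicate 2 the same shortening changed little (17.9% against 17.5%). The fold changes and calls of the genes were therefore also computed with replicates 1 and 2 only. The nearest genes by pattern, the order of levels and the transporter shares were not. As a check of the iron labels, FLD1 for the iron-free electron carrier flavodoxin was at 9695 FPKM without iron against 12.6 with it, and FDX1A for a ferredoxin at 429 against 5999. Of the 8 genes fixed as markers of green algal cells (RBCS1, RBCS2, LHCBM5, PSAD1, PSAE1, TUA1A, TUA1B and TUB1), the lowest group mean was 260 FPKM, for TUB1. These markers moved with iron too: PSAE1 (log2 fold change -3.12), PSAD1 (-2.81), LHCBM5 (-1.91), RBCS2 (-0.82) and RBCS1 (-0.60) fell without it, TUA1A (0.53) and TUA1B (0.43) rose, and TUB1 did not pass (-0.12, but 0.11 with the FPKM sums set equal and 0.08 under quantile normalization). TUA1B was not called with replicates 1 and 2 only (limma adjusted p = 0.05065).

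IRT1A (Dte_g07377) lies on the plus strand of scaffold_02 from 13807708 to 13822446, and is named for a ZIP transporter. Its level was 216, 216 and 212 FPKM in replicates 1, 2 and 3 without added iron. With 1.5 µM iron it was 37.3, 21.1 and 17.6 FPKM. The libraries without iron lay within a few FPKM of each other (214.5 ± 2.55, SD, n = 3), whereas those with iron were spread more widely (25.3 ± 10.5), and 1.5 µM replicate 1 was the high one. The log2 fold change was 3.10 (SE 0.24, 95% interval 2.54 to 3.66, limma adjusted p = 8.71e-05), the rise in 36th place when all 11273 tested genes are ordered. Without 1.5 µM replicate 1 the log2 fold change was 3.41.

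IRT1B (Dte_g09118), the second gene with that name, lies on the plus strand of scaffold_05 from 4829315 to 4836073 and was far less abundant. It was measured at 10.7, 12.7 and 15.4 FPKM without added iron. At 1.5 µM it was measured at 0.851, 1.62 and 1.74 FPKM. The lowest library without iron was thus well above the highest with iron, and 1.5 µM replicate 1 held the lowest value, the library that was high for IRT1A. If a step is 1 read, the 3 values at 1.5 µM rest on about 17, 30 and 18 reads, the fewest behind any value of the 4 genes. The log2 fold change was 2.54 (SE 0.19, 95% interval 2.10 to 2.98, limma adjusted p = 7.05e-05). At a pseudocount of 1 FPKM this understates the change of a gene near 1 FPKM, and with 0.01 FPKM it was 3.24.

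NRAMP4 (Dte_g04707), the only gene named for the NRAMP family, lies on the minus strand of scaffold_14 from 4379160 to 4387431. Its level without added iron was 39.5, 41.2 and 39.9 FPKM. With iron it was 13.1, 9.54 and 11.3 FPKM. Its replicates were close to each other in both groups (40.2 ± 0.903 and 11.3 ± 1.79 FPKM, SD, n = 3). The log2 fold change was 1.75 (SE 0.11, 95% interval 1.49 to 2.02, limma adjusted p = 3.32e-05).

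FER1 (Dte_g03639), the one gene named for ferritin, lies on the minus strand of scaffold_10 from 7685887 to 7688393. It went the other way, at 131, 117 and 114 FPKM without added iron. With iron it stood at 307, 255 and 310 FPKM. The ferritin transcript was thus lower without iron but still among the more abundant ones, with 94.8% to 95.3% of all genes below it in a library, against 97.2% to 97.7% with iron. The log2 fold change was -1.26 (SE 0.10, 95% interval -1.48 to -1.03, limma adjusted p = 8.83e-05). By replicate number, the level at 1.5 µM was 2.34, 2.18 and 2.71 times that at 0 µM in replicates 1, 2 and 3. The groups did not overlap, so any pairing of the libraries shows the fall and this is no further support.

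**Figure D2:**
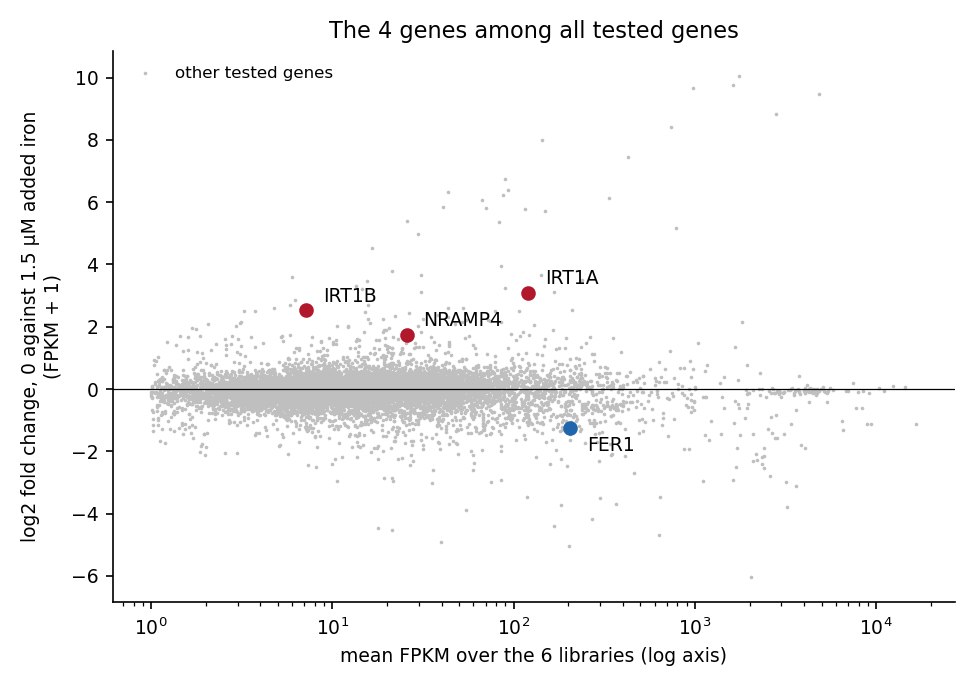
Log2 fold change of FPKM + 1 (0 against 1.5 µM added iron) of every tested gene against its mean FPKM over the 6 libraries (log axis), with the 4 genes marked. IRT1A (3.10), IRT1B (2.54) and NRAMP4 (1.75) lie above the bulk of the genes at 3 different levels of abundance, and FER1 (-1.26) below it.

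The order of the 4 levels changed with iron. Without added iron the order was IRT1A, FER1, NRAMP4 and IRT1B, and with iron it was FER1, IRT1A, NRAMP4 and IRT1B. At both iron levels the libraries of neighbours in the order did not overlap. The closest neighbours were IRT1A and NRAMP4 at 1.5 µM, where the lowest IRT1A library had 17.6 FPKM and the highest NRAMP4 library 13.1. IRT1A ranked between 411th and 438th of 14354 genes by level in the libraries without iron, and between 2188th and 4119th in those with it. IRT1B ranked between 10958th and 11274th with iron and between 4667th and 5777th without.

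The transporters were also set against the ferritin gene inside each library. This removes the scaling of the library from a plain ratio of FPKM. A coding length that differs between libraries, as the steps in the replicate 3 libraries gave, does not cancel between genes of different length. A ratio of FPKM + 1 keeps part of that scaling for a gene near 1 FPKM, such as IRT1B with iron. For each FPKM of FER1 there were 1.65, 1.85 and 1.85 FPKM of IRT1A without added iron. At 1.5 µM there were 0.121, 0.0827 and 0.0569. IRT1A therefore exceeded FER1 in all 3 libraries without iron and was below it in all 3 with iron. On the log2(FPKM + 1) scale the ratio to FER1 was 4.36 higher without iron for IRT1A, 3.80 higher for IRT1B and 3.01 higher for NRAMP4. With replicate 3 of both groups left out, these differences were 4.07, 3.69 and 2.93. The value for IRT1B depended on the pseudocount, at 4.42 with 0.1 FPKM and 4.51 with 0.01 FPKM, where IRT1A was at 4.42 with both. The groups did not overlap in these 3 ratios, and each gave an exact permutation p = 0.1 (two-sided, adjusted p = 0.133 over 4 ratios), the smallest that 3 against 3 libraries allow. Every transporter was higher and FER1 lower in all libraries without iron, so the levels already fixed this separation and its p. The ratios to FER1 are therefore no further test of the iron response. The summed FPKM of the 3 transporters was 266 to 270 without iron and 30.7 to 51.2 with it. IRT1A made up 79.3% to 81.1% of that sum without iron and 57.5% to 72.7% with it, and NRAMP4 made up 14.8% to 15.3% and 25.6% to 36.8%.

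**Figure D3:**
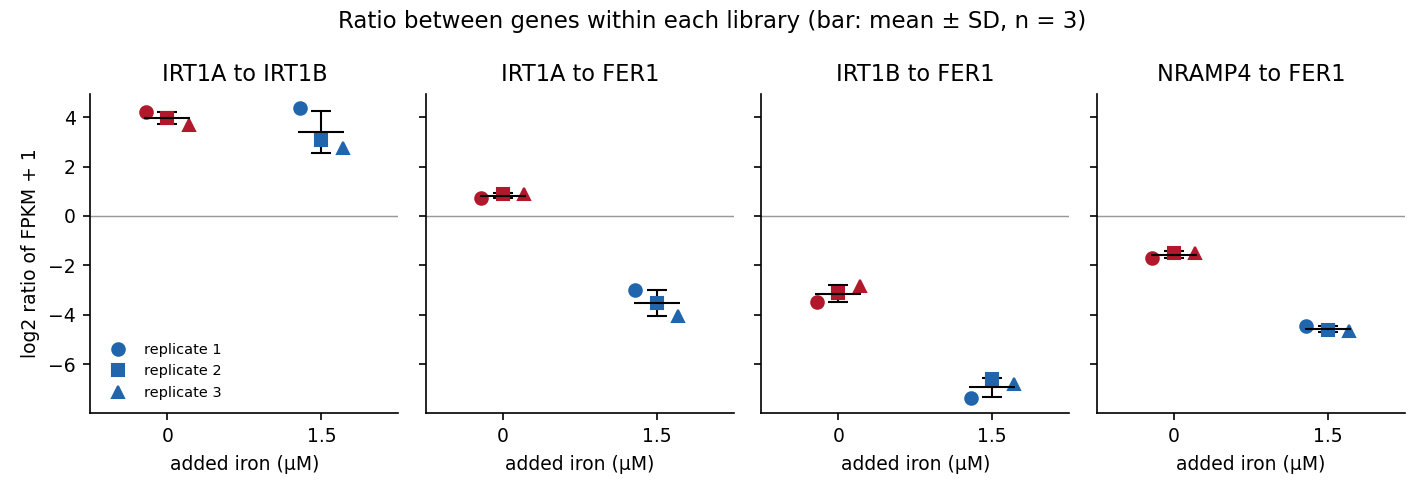
Log2 ratio of FPKM + 1 between genes within each library at 0 and 1.5 µM added iron, with mean ± SD (n = 3) as bars. The 3 ratios to FER1 separate the iron levels, as the levels of these genes already do, by 4.36, 3.80 and 3.01 on the log2 scale. The IRT1A to IRT1B ratios of the iron levels overlap.

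Whether the IRT1 copies responded by different amounts was tested in the same way. IRT1B was 4.96%, 5.88% and 7.26% of the IRT1A level without added iron. With iron it was 2.28%, 7.70% and 9.87%. The iron levels overlapped, because 1.5 µM replicate 1 had the lowest share and replicates 2 and 3 the highest. The log2 ratio of IRT1A to IRT1B was 3.97 ± 0.26 without iron and 3.40 ± 0.85 with it (SD, n = 3), a difference of 0.56 (exact permutation p = 0.4, two-sided, adjusted p = 0.4 over 4 ratios). The direction of this difference depended on the pseudocount, since it was -0.0036 at 0.1 FPKM and -0.09 at 0.01 FPKM (exact permutation p = 1 in both). A difference in response between the copies was not detectable beyond the spread between replicates, which does not show that they respond alike.

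The gene models hold coding segments only, and those of the IRT1 copies resembled each other. Both have 13 coding segments and 12 introns, with 1260 nt of coding sequence in IRT1A and 1212 nt in IRT1B. In order of transcription, 7 of the 13 segments have the same length in both genes, and the other 6 differ by 3 to 30 nt, in each case by a multiple of 3. The introns differ more: IRT1A has the longer one at 11 of 12 places and spans 14739 nt, against 6759 nt in IRT1B. NRAMP4 also has 13 coding segments, with 1578 nt of coding sequence in 8272 nt, and FER1 has 7, with 723 nt in 2507 nt. How similar the IRT1 sequences are was not examined here, so reads of the more abundant copy counted for the other cannot be told apart from its own. None of the 4 genes was among the 100 tested genes whose 6 values were identical to those of another gene.

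**Figure D4:**
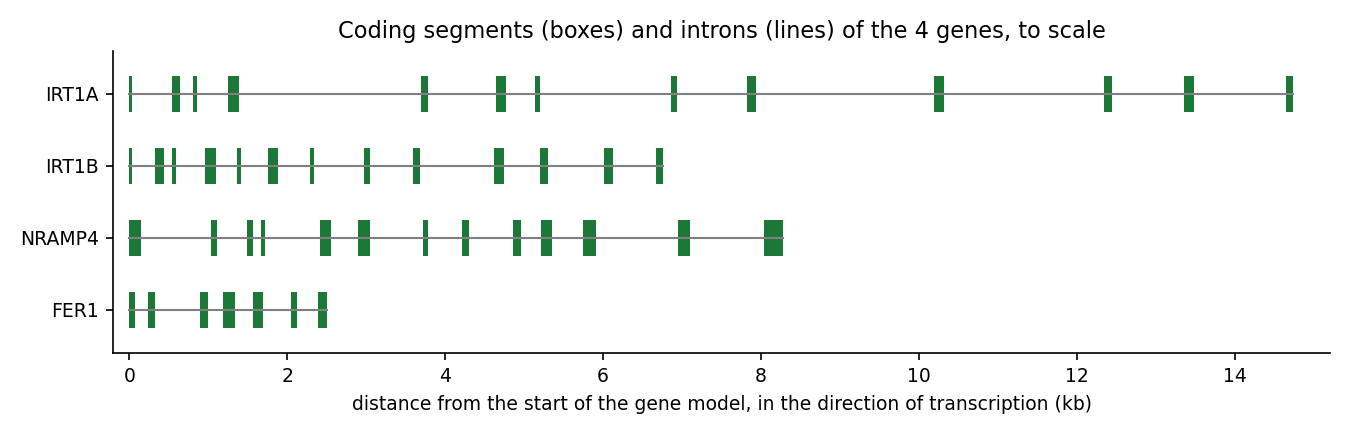
Coding segments (boxes) and introns (lines) of the 4 gene models, drawn to scale from the start of each model in the direction of transcription (kb). The 13 segments of IRT1A and IRT1B follow in the same order, and the introns of IRT1A are longer at 11 of 12 places.

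Of the 8 genes next to the 4 genes on the scaffolds 6 were tested, of which 1 rose, 1 fell and 4 did not pass. Called shares over all tested genes were 11.6% higher and 18.7% lower, and whether neighbours change together was not tested. The gene that rose was CGL156, 7896 nt from IRT1A, at 37.0 ± 2.21 FPKM without iron and 27.2 ± 1.05 with it (log2 fold change 0.43, limma adjusted p = 0.00536). The gene that fell was LHL4, 4369 nt from FER1, at 49.3 ± 6.88 and 66.4 ± 9.46 FPKM (log2 fold change -0.42, limma adjusted p = 0.0481). That call of LHL4 was lost without 0 µM replicate 2 (adjusted p = 0.121) or 3 (0.134), without 1.5 µM replicate 1 (0.115) or 3 (0.0824), in all 3 other scalings, with no filter (0.0757), without the trend (0.0598) and with replicates 1 and 2 only (0.188). CGL156 lost its call with replicates 1 and 2 only (limma adjusted p = 0.0634). NRAMP4 and the unnamed Dte_g04708 lie head to head with 233 nt between their models. Dte_g04708 was at 13.0, 12.9 and 12.9 FPKM without iron and at 14.4, 14.9 and 14.5 FPKM with it, and did not pass (log2 fold change -0.16, limma adjusted p = 0.117; 0.05 with equal FPKM sums).

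The nearest named genes by pattern were those with the smallest root mean square difference from a member over the 6 libraries, in log2(FPKM + 1) centred on each gene's mean. For IRT1A they were UBC16, named for a ubiquitin-conjugating enzyme (0.405), RFS1 (0.485) and CPLD11 (0.509). For IRT1B they were RFS1 (0.178), GCH3 (0.256) and CPR3 (0.282). For NRAMP4 they were the monodehydroascorbate reductase gene MDAR1 (0.117), COQ5B of ubiquinone synthesis (0.125) and the thioredoxin reductase gene NTRC1 (0.134). For FER1 they were CHLP1 for geranylgeranyl reductase (0.071), FAB2 for a stearoyl-ACP desaturase (0.076) and NII1 for nitrite reductase (0.084). With a pseudocount of 0.1 FPKM all 3 genes nearest to IRT1A stayed among its nearest, and 2 of 3 did for each other member, with GCH3, NTRC1 and NII1 dropping out. Each of the other 3 members had a nearer named gene than IRT1A had. UBC16 went from 37.5 ± 1.35 to 440 ± 36.5 FPKM without iron, COQ5B from 8.56 ± 0.443 to 27.7 ± 1.25, and CHLP1 from 744 ± 55.8 to 293 ± 30.6.

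ZIP and NRAMP are separate families whose genes were listed together here. The genes of this list other than the 3 transporters were all named for ZIP proteins and had smaller log2 fold changes, in both directions. NRAMP4 thus had no other gene of its own family beside it. Of 12 genes annotated and tested 5 rose, 3 fell and 4 did not pass, with a median log2 fold change of 0.18, beside -0.03 over all tested genes. Over all tested genes 11.6% were called higher and 18.7% lower, the background also for the lists that follow. Without IRT1A, IRT1B and NRAMP4, 2 of 9 rose, 3 fell and 4 did not pass, with a median of -0.11, which was 0.04 with the FPKM sums set equal. ZIP12 went from 17.5 ± 3.46 to 45.5 ± 1.42 FPKM, a rise of 1.35 on the log2 scale (limma adjusted p = 0.00036), and ZIP3 from 6.01 ± 0.889 to 9.56 ± 0.863 (0.60, limma adjusted p = 0.00928). ZIP9 fell from 36.7 ± 3.37 to 16.2 ± 1.14 FPKM (-1.13, limma adjusted p = 0.000122), ZIP4 by 0.42 and ZIP8 by 0.40 on the log2 scale. ZIP7 (0.30), ZIP10 (0.06), ZIP11 (-0.11) and ZIP13 (-0.28) did not pass. ZIP7 passed under quantile normalization and with equal sums (limma adjusted p = 0.0302 and 0.0447), and ZIP13 without 0 µM replicate 3 (0.0446). With equal sums ZIP4 and ZIP8 were no longer called and 1 gene of the list fell, as with replicates 1 and 2 only. ZIP3 also lost its call with replicates 1 and 2 only, and ZIP4 lost it without any one of 0 µM replicates 1 or 3 and 1.5 µM replicates 1 or 3 (limma adjusted p from 0.0644 to 0.0917).

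Of 9 genes for iron capture and reduction at the cell surface 6 rose, 1 fell and 2 did not pass, with a median log2 fold change of 1.97. The ferroxidase gene FOX1 rose from 4.26 ± 2.86 to 847 ± 78.8 FPKM (7.46), and the ferric reductase genes FRE1A and FRE1B rose by 5.35 and 1.97. TFN genes are named for transferrin-like proteins, which bind ferric iron at the surface of Dunaliella salina. TFN1A rose from 675 ± 185 to 2941 ± 46.2 FPKM (2.15, limma adjusted p = 8.76e-05), TFN3 by 5.86 and TFN5 by 0.96, and TFN7 fell by 0.72 on the log2 scale. TFN1B (-0.11) and TFN6 (-0.20, limma adjusted p = 0.0765) did not pass. With the replicate number as a block TFN6 passed (limma adjusted p = 0.0425), as it did without 0 µM replicate 3 (0.047), so 2 genes fell there. With equal sums TFN6 and TFN1B were at 0.03 and 0.06.

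FOX1, TFN3 and FRE1A thus had larger log2 fold changes than IRT1A, and FRE1B and TFN1A lay between NRAMP4 and IRT1B; these differences between genes were not tested. By level without added iron, TFN1A (2941 FPKM), FOX1 (847) and TFN5 (268) lay above IRT1A (214.5), and FRE1A (163) below it.

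Of 14 genes for other metal transport 3 rose, 5 fell and 6 did not pass, with a median log2 fold change of -0.09, which was 0.13 with equal sums. The 4 with the smallest p were MTP2 of the cation diffusion facilitators (1.48), the copper ATPase genes CTP1 (1.32) and CTP2 (-1.01), and MFL1 (-1.32). The largest fall of the list was that of MTP1B, from 28.7 ± 6.33 to 9.48 ± 1.92 FPKM (-1.50, limma adjusted p = 0.000802). FPN1, named for the iron exporter ferroportin, went from 10.0 ± 0.335 to 12.2 ± 1.91 FPKM and did not pass (0.25, limma adjusted p = 0.134), and passed at 0.46 with equal sums (limma adjusted p = 0.00963). With equal sums 5 genes of this list rose and 3 fell, and with replicates 1 and 2 only, 2 rose and 3 fell. One of the 5 that fell, the copper transporter gene CTR2 (-0.26, limma adjusted p = 0.0354), lost its call without any one of the 6 libraries (adjusted p from 0.0559 to 0.121) and with median-ratio scaling (0.0812), equal sums (0.781) or replicates 1 and 2 only (0.145).

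Of 3 heme oxygenase genes, whose enzymes open the heme ring and free its iron, 2 rose and 1 did not pass. HMOX1 was at 381, 383 and 375 FPKM without added iron and at 183, 164 and 169 with it (log2 fold change 1.14, limma adjusted p = 1.79e-05). HMOX2B rose by 0.39 and HMOX2A was at 0.19 (limma adjusted p = 0.189) and passed with equal sums (0.40, limma adjusted p = 0.0302). HMOX2B was not called without 0 µM replicate 2 (limma adjusted p = 0.0574), without 1.5 µM replicate 3 (0.0598) or with replicates 1 and 2 only (0.103), so that 1 gene rose there.

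**Figure D5:**
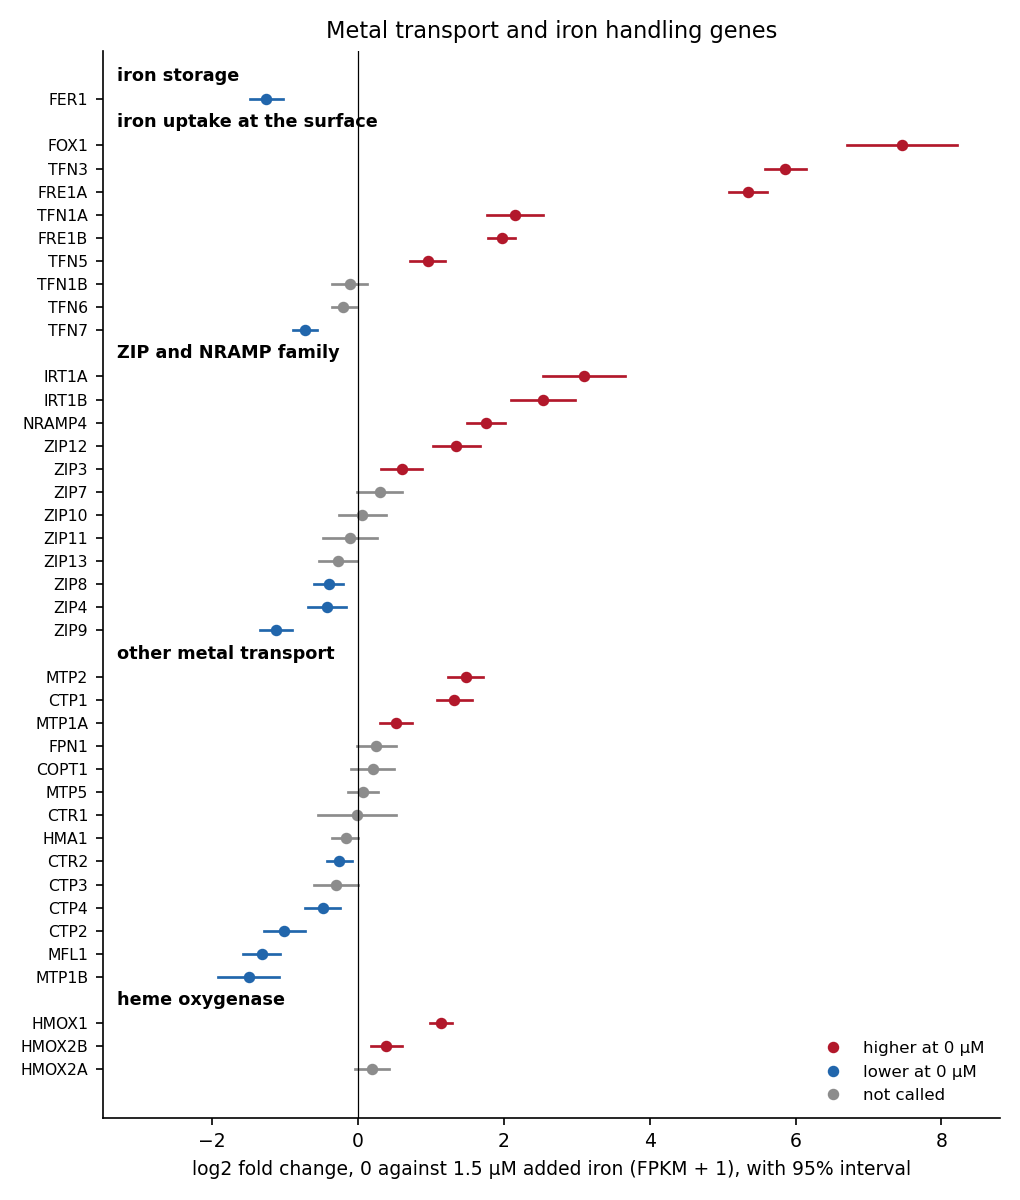
Log2 fold change of FPKM + 1 (0 against 1.5 µM added iron) with its 95% interval for FER1 and the genes of 4 lists, coloured by the limma call at an adjusted p of 0.05. IRT1A (3.10), IRT1B (2.54) and NRAMP4 (1.75) have the highest values of the joint list of ZIP and NRAMP genes, in which ZIP9 (-1.13) has the lowest.

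Over the whole transcriptome 1303 genes were called higher and 2105 lower without added iron. That balance depended on the scaling: with equal FPKM sums the median log2 fold change over all genes was 0.17 in place of -0.03, and 3188 genes were higher and 1087 lower. The counts in both directions were smaller with single libraries left out. Without 0 µM replicate 2, 797 genes were higher and 1578 lower, and without 1.5 µM replicate 3, 836 were higher and 1504 lower. The directions and calls of IRT1A, IRT1B, NRAMP4 and FER1 were the same in all 17 alternatives, with equal sums at log2 fold changes of 3.33, 2.72, 1.97 and -1.03.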

How the data were processed

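The deposited table gives FPKM per gene and library. Per the labels and the design text, the authors sequenced 50 nt from one end and aligned to an assembly of their own. STAR 2.4.0j and Cuffdiff 2.0.2 are listed in the submitters' processing notes. The deposited annotation gives gene names and other features with their coordinates, per the file headers on the authors' assembly. The members and lists were chosen with earlier results of these data known. The titles gave each library's iron level.

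FPKM are not counts, so log2(FPKM + 1) was fitted with limma 3.58.1 in R 4.3.3 (eBayes with trend, two-sided, Benjamini-Hochberg over 11273 genes with a mean of at least 1 FPKM, threshold 0.05). Ratios between genes had exact permutation tests in scipy 1.17.1. Only the limma fit was tested on simulated data, with changes placed in genes well above the filter. That simulation did not cover a level as low as that of IRT1B with iron, nor the permutation tests. Depth was judged only from steps in the low values of genes of at least 400 nt, so no counting intervals are given. The sources used here do not say whether each flask had its own preculture, so the p-values cover the spread between flasks, which may be technical.

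Each library's deviations from its group mean, over genes, correlated at 0.239, 0.262 and 0.168 between libraries of the same number and at -0.220 to -0.014 otherwise. The numbers may therefore pair the libraries, judged from the data and not from the labels. The main limma fit left this pairing out, and the block was an alternative. The permutation tests of the ratios also left it out, with no paired alternative. Further alternatives used a pseudocount of 0.1 or 0.01 FPKM, a filter of 5 FPKM or none, 3 other scalings, robust eBayes, no trend, replicates 1 and 2 only and each library left out. Genes named are the 4 members, all of the surface uptake and ZIP and NRAMP lists, up to 4 of each other list by p (FPN1, CTR2, CTP3 and MTP1B were added after their values were seen), neighbours, the 8 green algal markers, the 3 nearest named genes by pattern, and FLD1 and FDX1A. No sequence was read.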

Additional observations from a re-analysis of the deposited data

How the results depend on the processing

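Under the 17 alternatives run for each, IRT1A kept a log2 fold change of 2.89 to 3.41, IRT1B of 2.36 to 3.24, NRAMP4 of 1.65 to 1.97 and FER1 of -1.35 to -1.03, all called, with the largest limma adjusted p (0.00531, 0.00419, 0.00564 and 0.00789) with replicates 1 and 2 only. With the replicate block the limma adjusted p was 0.000169, 4.14e-05, 0.000169 and 0.000165, and among the list genes the block changed no call but those of TFN6 and CTP3, which passed, so 2 surface uptake genes fell. The IRT1A to IRT1B ratio difference reversed to -0.0036 and -0.09 with pseudocounts of 0.1 and 0.01 FPKM, since IRT1B lies near 1 FPKM with iron, and was 0.38 to 0.92 with 1 replicate number left out. The NRAMP4 to FER1 difference was 2.93 to 3.14 then. With equal sums 3188 genes were higher and 1087 lower, 1 ZIP and NRAMP gene fell, and 5 other metal transport genes rose and 3 fell. With replicates 1 and 2 only 531 genes were higher and 1108 lower. Of the ZIP and NRAMP genes 4 rose and 1 fell there, of the other metal transport genes 2 rose and 3 fell, and 1 heme oxygenase gene rose. With 1 library left out, 797 to 1283 genes were higher and 1504 to 1910 lower. There 1 to 2 surface uptake genes fell and 1 to 2 heme oxygenase genes rose. Of the other named genes, ZIP10 ranged from -0.02 to 0.21 and ZIP11 from -0.20 to 0.04 with 1 library left out, ZIP11 was at 0.08 with replicates 1 and 2 only and at 0.04 with equal sums, and TFN6 (0.03), TFN1B (0.06), Dte_g04708 (0.05) and TUB1 (0.11, and 0.08 under quantile normalization) also turned with equal sums, none of them called there. With equal sums the median log2 fold change over all tested genes also moved, from -0.03 to 0.17. The FPKM sums were lower in every library without added iron, so setting them equal moves log2 fold changes upward. Why those sums differ was not tested, nor was the cause of the shifts in the other settings. Depth limits IRT1B most, at about 17 to 30 reads per library with iron if a step is 1 read.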
